A study of Rattus norvegicus with 48 samples.

Results

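The ephrin-A system consists of EphA receptors, which are receptor tyrosine kinases, and ephrin-A ligands, which are held on the outer face of the cell membrane by a lipid anchor. A receptor on one cell binds a ligand on a neighbouring cell, and both cells can signal as a result. In rodents the system guides growing axons to their targets, most often by repulsion, and in the adult hippocampus it takes part in shaping dendritic spines and synapses. The genes described here are 8 members of the system: the receptors Epha3, Epha4, Epha5, Epha6 and Epha7 and the ligands Efna2, Efna3 and Efna5. They were selected on measured values, since Epha5 had the nearest lineage and interaction difference in hippocampal area CA3 in an earlier analysis of the same arrays. The arrays hold 27342 probe sets, and those that the platform annotation gives 1 symbol carry 14324 distinct gene symbols. Among the probe sets with 1 symbol, 5 of the 8 members had 1 each. These are Epha3 (probe set 10752630), Epha5 (10772128), Epha7 (10867955), Efna2 (10900572) and Efna5 (10930204). Epha4, Epha6 and Efna3 had no probe set with 1 symbol and were not analysed here. The 323 probe sets with several symbols were not searched for members.

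The arrays hold RNA of adult male Sprague-Dawley rats, 120 days old, of the F3 generation. Vinclozolin is a fungicide that acts as an anti-androgen. In the vinclozolin lineage (Vin) the pregnant F0 females received 100 mg/kg/day of it by intraperitoneal injection from embryonic day 8 to 14, and in the control lineage (Con) they received the vehicle, DMSO. The F3 animals themselves were not dosed. The stress of the St groups was restraint, 6 hours daily on 21 days from postnatal day 23 to 43, which the NSt groups did not undergo. The 4 groups are therefore St-Vin, St-Con, NSt-Vin and NSt-Con, and each was measured in CA3 and CA1 of the hippocampus, in the basolateral amygdala (BLA) and in primary and secondary motor cortex (CRTX). Tissue was taken as 2 mm punches, which can hold neighbouring structures, and each array holds RNA pooled from 4 animals. A control and a vinclozolin rat shared a cage as a dyad, and the 2 pools of a dyad group are cage mates. Dyad groups 4 to 6 were stressed and dyad groups 1 to 3 were not, and all 4 areas were taken from the same pools. Of 48 arrays 46 were used, since 1 array of CRTX NSt-Vin (replicate 2) and 1 of CA1 St-Con (replicate 3) equal the mean of the other arrays of their group on every probe set, which leaves n = 2 in those groups and n = 3 elsewhere. All values are log2 signals, and the number of arrays limits their precision.

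The labelled areas were checked against marker genes. The list for CA3 and CA2 pyramidal cells (10 genes measured) averaged 8.81 in CA3, 8.41 in CA1, 8.11 in BLA and 7.34 in CRTX. The list for CA1 pyramidal cells (6 genes) averaged 9.50 in CA3 and 9.11 in CA1, so it does not set the CA1 punches apart. The list for dentate granule cells (5 genes) averaged 8.31 in CA3, 7.50 in CA1, 7.17 in BLA and 6.45 in CRTX. Of its genes the transcription factor Prox1 (8.97 in CA3, 7.77 in CA1), the secreted synaptic protein C1ql2 (9.21 and 7.52) and Pdzd2 (7.91 and 7.33) were highest in CA3, whereas Tdo2 was highest in CA1 (5.23 in CA3, 5.49 in CA1) and Calb1 in BLA (10.22 in CA3, 10.39 in BLA). The list for the amygdala (10 genes) averaged 8.43 in BLA and 8.60 in CA3. The list for cortical layers (6 genes) averaged 8.69 in CA3, 8.59 in CA1 and 8.27 in CRTX. As deposited, neither list was highest in its own area. However, the median probe set was itself higher in CA3, by 0.323 than in BLA and by 0.498 than in CRTX. These offsets exceed the list gaps between the same areas, so set against CA3 the deposited averages cannot decide whether these lists mark the BLA and CRTX punches. Between CA1 and CRTX the median probe set differed by 0.303, slightly less than the gap of the cortical layer list. In such bulk samples fewer cells of a type and less RNA per cell cannot be told apart.

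The regions upstream of the gene starts are shown for the 3 members on which the results below turn, namely Epha5, whose CA3 values led to the choice of these genes, and Epha7 and Efna5, which had the largest area differences, in opposite directions between CA3 and CRTX. Each is the 250 bases before the gene's start in RefSeq assembly GRCr8, written 5′ to 3′ on the gene's own strand. Every CG dinucleotide, the usual site of DNA methylation, is in capitals. The labels chr14.0, chr5.0 and chr9.0 stand for chromosomes 14, 5 and 9.
Epha5, chr14.0:24007872-24008121, plus strand: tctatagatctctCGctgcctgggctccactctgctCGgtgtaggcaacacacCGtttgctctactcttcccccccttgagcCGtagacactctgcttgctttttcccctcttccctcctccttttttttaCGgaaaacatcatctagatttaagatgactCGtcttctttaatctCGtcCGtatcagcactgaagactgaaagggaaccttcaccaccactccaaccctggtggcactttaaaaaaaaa
Epha7, chr5.0:47771643-47771892, plus strand: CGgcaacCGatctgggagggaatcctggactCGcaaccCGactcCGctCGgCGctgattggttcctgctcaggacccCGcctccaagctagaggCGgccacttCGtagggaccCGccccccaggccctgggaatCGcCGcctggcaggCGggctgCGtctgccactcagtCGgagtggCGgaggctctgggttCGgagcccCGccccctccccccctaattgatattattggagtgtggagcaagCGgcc
Efna5, chr9.0:110042188-110042437, minus strand: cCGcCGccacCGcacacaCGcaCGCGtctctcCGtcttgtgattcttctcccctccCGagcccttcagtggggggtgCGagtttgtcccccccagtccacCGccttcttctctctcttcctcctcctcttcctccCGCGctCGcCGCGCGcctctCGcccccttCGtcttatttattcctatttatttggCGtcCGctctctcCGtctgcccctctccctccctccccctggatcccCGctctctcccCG
RefSeq promoters matched 7 of the 8 members. The CG count was 8 for Epha5, 20 for Epha7 and 23 for Efna5, and it was 17 for Epha3, 16 for Epha6, 31 for Efna2 and 19 for Efna3, against a median of 5 over 33469 promoters of the same length. Epha5 thus had the lowest count of the 7. The hexamer AGAACA, a half-site that androgen and glucocorticoid receptors share, was searched on both strands (AGAACA or TGTTCT) and occurred in 0 of the 7 windows, against 17.5% of all promoters. No methylation or binding was measured in these samples, and a missing match says only that these letters are not in this window.

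The receptors Epha3, Epha5 and Epha7 and the ligand Efna2 had their highest mean in CA3 and their lowest in CRTX, while the ligand Efna5 had its highest mean in CRTX and its lowest in CA3. In a limma fit of all 46 arrays with the animal pool as a block, 26 of the 30 pairwise area differences of the 5 members passed an adjusted p of 0.05 (Benjamini-Hochberg over all probe sets), 22 of them higher in the first-named area and 4 lower. Most probe sets did so too: 79.6% for CA3 minus CA1, 87.4% for CA3 minus BLA, 95.1% for CA3 minus CRTX, 76.5% for CA1 minus BLA, 88.7% for CA1 minus CRTX and 79.5% for BLA minus CRTX. The number of calls is therefore no result about these genes, and their sizes and directions are given instead. The median probe set was itself higher by 0.207, 0.323, 0.498, 0.131, 0.303 and 0.185 in the same 6 differences, and array medians lay between 7.34 and 7.39 in CA3 and between 6.76 and 6.805 in CRTX, so the areas may not share a scale. Each difference was therefore also taken after quantile normalization of all arrays, after which 25 were called (20 higher, 5 lower) and the median probe set differed by at most 0.004 between areas. The shares of probe sets called were then 58.2%, 71.6%, 71.3%, 69.5%, 64.3% and 74.1%. Centring each array on its median also left 25 calls, with shares of 61.9%, 76.1%, 75.5%, 75.0%, 65.6% and 79.5%.

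**Figure D1:**
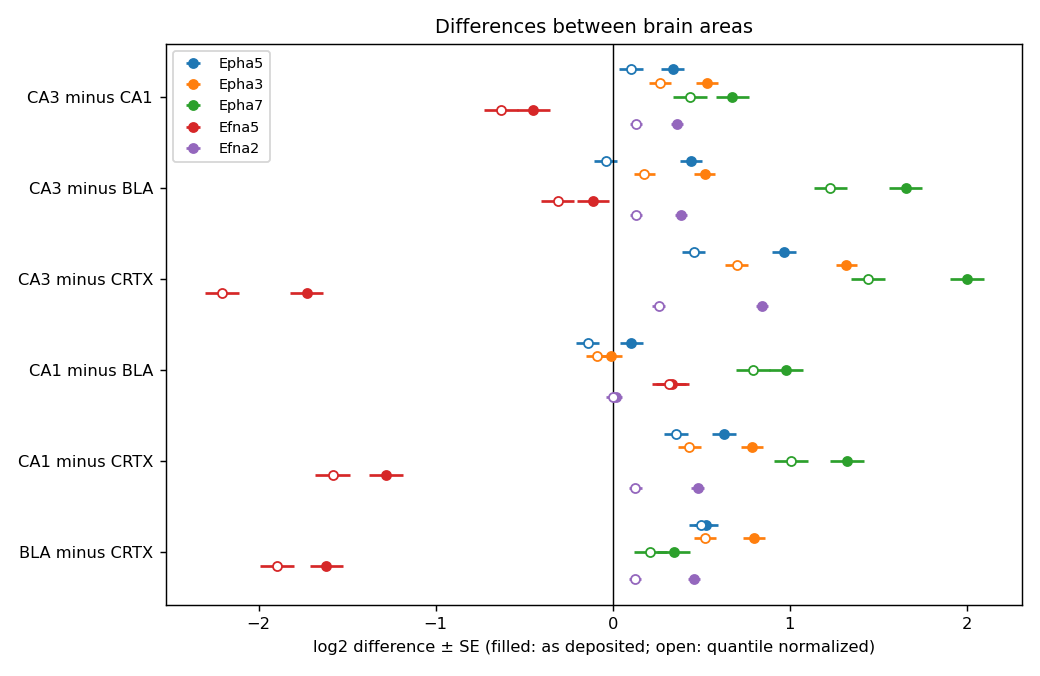
Log2 differences between brain areas (horizontal axis, first-named minus second-named area) for the 5 members, with bars for the standard error of the limma fit; filled points are the values as deposited and open points follow quantile normalization of all arrays. Epha7 in CA3 minus CRTX lies at 2.00 as deposited and 1.44 after normalization, and Efna5 at -1.73 and -2.21.

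Epha7, a receptor involved in cortical and hippocampal wiring in mice, had the widest receptor gradient. Its signal had a lowest, median and highest value of 9.77, 10.23 and 10.58 over 12 arrays in CA3, of 9.08, 9.54 and 10.26 over 11 arrays in CA1, of 8.25, 8.56 and 9.28 over 12 in BLA and of 8.00, 8.19 and 8.61 over 11 in CRTX. CA3 and CA1 overlapped in a few arrays, and every CA3 array stood above every BLA and CRTX array. CA3 minus CRTX was 2.00 ± 0.095 (SE, adjusted p = 9.59e-21), a 4.0-fold higher signal, and 1.44 (2.72-fold) after quantile normalization. That difference lay at percentile 99.7 of all probe sets on either scale. CA1 minus BLA was 0.98 ± 0.095 (adjusted p = 2.23e-11) and 0.79 after normalization (adjusted p = 3.33e-09). BLA and CRTX are neighbours in this order, and their difference of 0.34 ± 0.095 (adjusted p = 0.00138) was 0.21 after quantile normalization (adjusted p = 0.0415) and was no longer called when arrays were centred on their medians (0.020, adjusted p = 0.853).

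Efna5, a ligand that repels EphA-bearing axons in several rodent projections, had values of 8.08, 8.23 and 8.41 (lowest, median and highest) in CRTX, 6.23, 7.07 and 7.48 in CA1, 6.40, 6.58 and 6.90 in BLA and 6.34, 6.46 and 6.87 in CA3. Every CRTX array stood above every array of the other 3 areas, and BLA and CA3 overlapped. CA3 minus CRTX was -1.73 ± 0.094 (adjusted p = 4e-19), a 3.31-fold lower signal, and -2.21 after quantile normalization (4.62-fold lower). It lay at percentile 0.0 of all probe sets, to 1 decimal. CA1 minus CRTX was -1.28 ± 0.096 (adjusted p = 1.6e-14) and BLA minus CRTX -1.62 ± 0.094 (adjusted p = 9.87e-18). CA3 minus BLA was -0.11 ± 0.091 (adjusted p = 0.241), but was called after quantile normalization (-0.31, adjusted p = 0.00349) and after centring (-0.38, adjusted p = 0.000406).

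Epha5, a receptor widely expressed in forebrain neurons, ranged from 10.03 to 10.41 in CA3 with a median of 10.17, from 9.71 to 10.16 in CA1 with a median of 9.82, from 9.12 to 10.15 in BLA with a median of 9.76 and from 9.13 to 9.31 in CRTX with a median of 9.23. CRTX was low and even, and BLA spread the most. CA3 minus CRTX was 0.97 ± 0.066 (adjusted p = 2.83e-16) and 0.46 after quantile normalization (adjusted p = 1.71e-07). The place of CA3 above CA1 and BLA depended on the scale. CA3 minus BLA was 0.44 ± 0.064 (adjusted p = 7.36e-08) as deposited and turned to -0.039 after quantile normalization (adjusted p = 0.597), while after centring it was still called, at 0.18 (adjusted p = 0.0128). CA3 minus CA1 was 0.34 ± 0.066 (adjusted p = 2.01e-05) as deposited, 0.10 after quantile normalization (adjusted p = 0.185) and 0.10 after centring (adjusted p = 0.182). CA1 and BLA are neighbours that did not pass (0.11 ± 0.066, adjusted p = 0.144).

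Epha3, a receptor that binds ephrin-A5 with high affinity, averaged 8.12 ± 0.12 in CA3 (SD, n = 12 arrays), 7.59 ± 0.14 in CA1 (n = 11), 7.60 ± 0.19 in BLA (n = 12) and 6.79 ± 0.089 in CRTX (n = 11). CA3 minus CRTX was 1.32 ± 0.061 (adjusted p = 3.27e-21) and 0.70 after quantile normalization. CA1 and BLA did not differ beyond their spread (-0.011 ± 0.061, adjusted p = 0.879). Efna2, a ligand known from retinal and cochlear wiring in mice, averaged 7.29 ± 0.061 in CA3, 6.93 ± 0.10 in CA1, 6.90 ± 0.056 in BLA and 6.45 ± 0.11 in CRTX, with the same n. Its CA3 minus CRTX difference of 0.84 ± 0.035 (adjusted p = 2.15e-22) was 0.26 after quantile normalization, and it lay at percentile 84.1 of all probe sets there. CA1 minus BLA of Efna2 was 0.020 ± 0.035 (adjusted p = 0.604).

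The labels give RNA preparation and scan dates that follow the areas. CA3 and CA1 RNA was prepared on one day and BLA and CRTX RNA on another, and CA3 and CA1 were scanned on days of their own, so area and scan day cannot be told apart in the differences that involve them. BLA and CRTX share a first scan day for 4 pools (8 arrays, all non-stressed). Within that day BLA minus CRTX was -1.58 ± 0.094 for Efna5 (adjusted p = 2.92e-05), 0.80 ± 0.082 for Epha3 (adjusted p = 0.000178), 0.63 ± 0.078 for Epha5 (adjusted p = 0.000407) and 0.47 ± 0.053 for Efna2 (adjusted p = 0.000271), and for Epha7 it was 0.33 ± 0.14 (adjusted p = 0.0799).

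**Figure D2:**
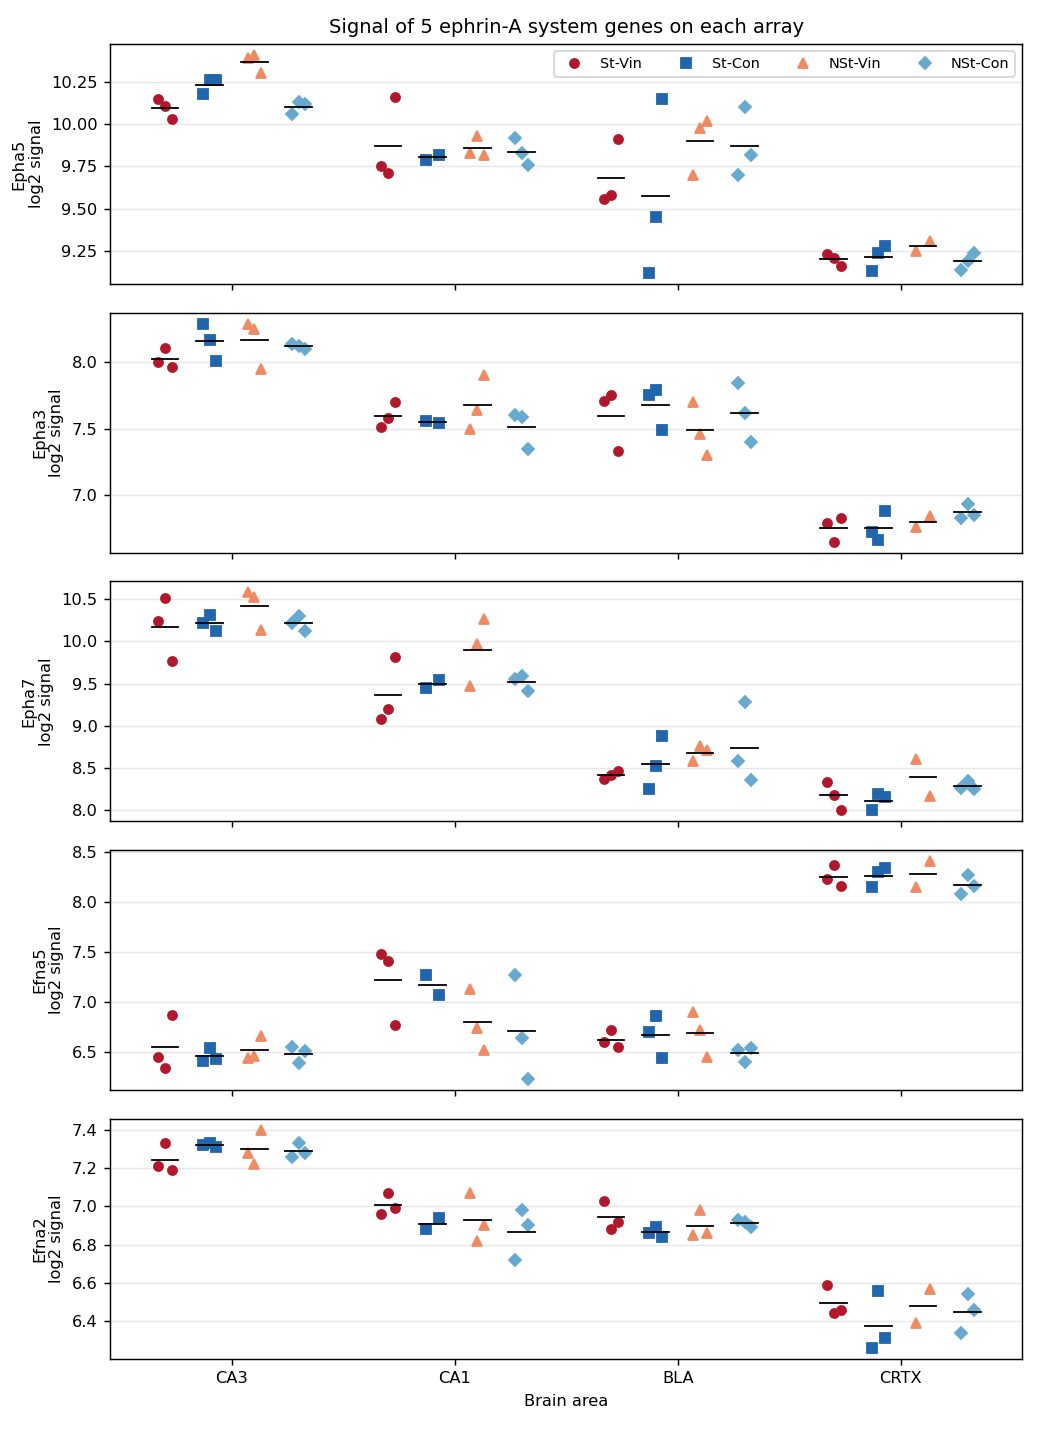
Log2 signal (vertical axis, a scale of its own for each gene) of the 5 members on each of the 46 arrays, by brain area and group; points are arrays and bars are group means. Epha7 steps down across the 4 areas, Efna5 stands above 8 in CRTX arrays only, and the groups within an area overlap for most genes.

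In CA3, Epha5 is the gene that led to the choice of these members, so its lineage, stress and interaction values there are a description with no test. Its signal was 10.15, 10.11 and 10.03 in St-Vin (replicates 1 to 3), against 10.18, 10.26 and 10.26 in St-Con. It was 10.39, 10.41 and 10.30 in NSt-Vin, against 10.06, 10.13 and 10.12 in NSt-Con. All NSt-Vin arrays were above all NSt-Con arrays and all St-Vin arrays were below all St-Con arrays. Vin minus Con was thus -0.14 ± 0.051 (SE) with stress and 0.26 ± 0.051 without, and their difference, the interaction, was -0.40 ± 0.072. Groups that did not overlap in these directions were found for 5.57% of all probe sets with stress (Vin lower) and 4.43% without (Vin higher).

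Read the other way, St minus NSt was -0.27 ± 0.051 in the vinclozolin lineage and 0.13 ± 0.051 in the control lineage, again without overlap. For 10.3% of all probe sets St-Vin lay wholly below NSt-Vin, and for 3.36% St-Con lay wholly above NSt-Con. Within cage-mate pairs, Vin was lower than Con in 3 of 3 stressed dyad groups, by -0.23 to -0.03, and higher in 3 of 3 non-stressed ones, by 0.18 to 0.33. After quantile normalization of the CA3 arrays the St-Vin values were 10.16, 10.15 and 10.17, against 10.14, 10.28 and 10.25 in St-Con, so that these groups overlapped, Vin was lower in 2 of 3 pairs and the difference was -0.065. The NSt-Vin values were then 10.27, 10.37 and 10.29, against 10.05, 10.16 and 10.10 in NSt-Con, still without overlap (0.21), St minus NSt in the vinclozolin lineage was -0.15, and the interaction was -0.27.

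Some of the marker lists were set beside the Epha5 values in CA3. The dentate list (5 genes) stood 0.42, 0.22 and -0.43 from its CA3 mean in NSt-Vin, where Epha5 was high in all 3 arrays. It stood at 0.11, 0.18 and -0.29 in NSt-Con, 0.09, 0.20 and -0.46 in St-Con and -0.06, 0.44 and -0.40 in St-Vin. The list for striatal medium spiny neurons (11 genes) stood 1.04 above its CA3 mean in NSt-Con replicate 2 and 0.64 above in NSt-Vin replicate 3. In the other CA3 arrays it stood between -0.31 and 0.20. The cortical layer list (6 genes) averaged 8.63, 8.64 and 8.60 in St-Vin, against 8.77, 8.71 and 8.69 in St-Con, lower without overlap as Epha5 was, and 8.77, 8.69 and 8.74 in NSt-Vin, against 8.82, 8.59 and 8.62 in NSt-Con, with overlap. The part of these lists in the Epha5 values was not tested. The choroid plexus list (13 genes) stood 2.49 above its mean in NSt-Con replicate 3, and without that array Vin minus Con without stress was 0.27.

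**Figure D3:**
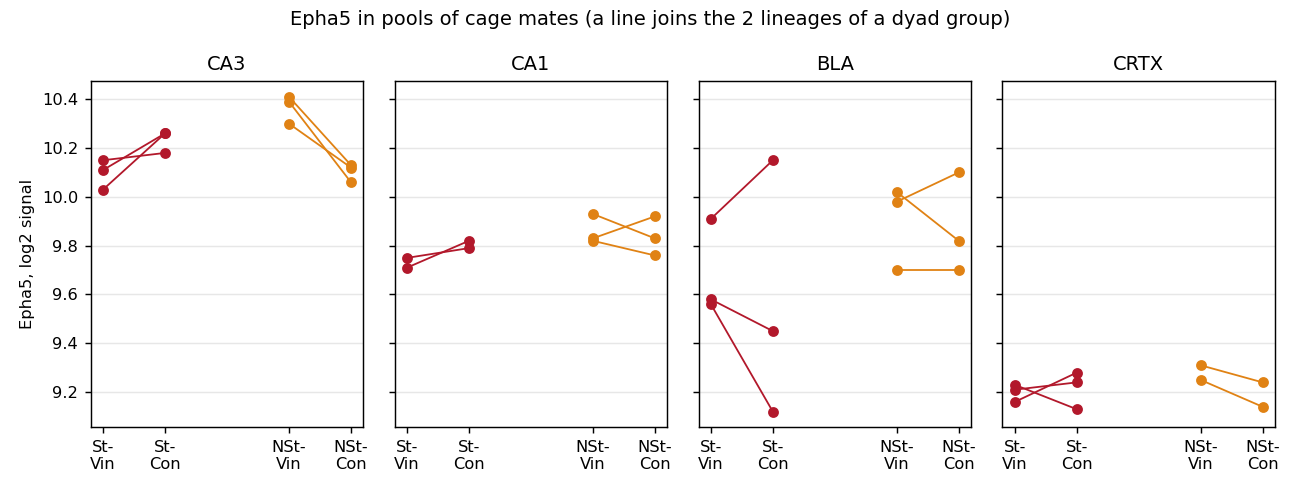
Epha5 log2 signal (vertical axis) in each area; points are pools and each line joins the Vin pool to the Con pool of its cage mates (pairs with a left-out array are not drawn). In CA3 the 3 stressed lines run up towards Con and the 3 non-stressed lines run down, while the other areas show mixed or small slopes.

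The other members in CA3 are described in the same way, with no test. Epha7 was 10.24, 10.51 and 9.77 in St-Vin, against 10.22, 10.31 and 10.12 in St-Con, and it was 10.58, 10.52 and 10.14 in NSt-Vin, against 10.22, 10.30 and 10.12 in NSt-Con. Its groups overlapped, with Vin minus Con at -0.043 ± 0.16 with stress and 0.20 ± 0.16 without. Epha3 had differences of -0.13 ± 0.091 with stress and 0.043 ± 0.091 without, Efna2 of -0.077 ± 0.056 and 0.010 ± 0.056, and Efna5 of 0.093 ± 0.12 and 0.037 ± 0.12. The groups of these 3 genes overlapped in CA3 in each of the 4 comparisons of groups. The 1 CA3 comparison that the choice did not use is the average stress difference, and limma called 0 of the 5 members in it (0 also at an unadjusted p under 0.05; 0.0% of all probe sets called). Epha5 was nearest, at -0.070 ± 0.036 (adjusted p = 0.506), and that value was -0.013 after quantile normalization.

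In the other 3 areas Epha5 gave no called difference. In CRTX it was 9.23, 9.21 and 9.16 in St-Vin, 9.13, 9.24 and 9.28 in St-Con, 9.25 and 9.31 in NSt-Vin, and 9.14, 9.19 and 9.24 in NSt-Con. The NSt-Vin arrays were above the NSt-Con arrays by 0.090 ± 0.063 (adjusted p = 0.927), and this lack of overlap was shared by 9.23% of all probe sets. They were also above the St-Vin arrays, by a St minus NSt difference of -0.080 ± 0.063 (adjusted p = 0.998), as for 7.43% of probe sets. In CA1 it was 9.75, 9.71 and 10.16 in St-Vin, 9.79 and 9.82 in St-Con, 9.83, 9.93 and 9.82 in NSt-Vin, and 9.92, 9.83 and 9.76 in NSt-Con. These groups overlapped, and Vin minus Con was 0.068 ± 0.12 with stress and 0.023 ± 0.10 without. The interaction, which was -0.40 in CA3, was 0.045 ± 0.16 in CA1 (adjusted p = 0.99), 0.083 ± 0.30 in BLA (adjusted p = 1.0) and -0.11 ± 0.084 in CRTX (adjusted p = 0.916). Whether it differs between areas was not tested.

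The lineage difference averaged over BLA, CRTX and CA1 was tested on the 10 pools measured in all 3, which hold the same animals as the CA3 arrays. Vin minus Con of Epha5 was 0.091 ± 0.057 (adjusted p = 0.9999), with pools between -0.082 and 0.162 in Vin and between -0.235 and 0.125 in Con around the area means. The other members lay between -0.011 (Epha3) and 0.058 (Efna2). limma called 0 of the 5 members, 0 also at an unadjusted p under 0.05, and 0.0% of all probe sets.

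Across BLA, CRTX and CA1 each member had 7 comparisons of lineage, stress and their interaction per area, 105 in all. None was called, and 3 had a limma p under 0.05 before adjustment, all of them stress differences of Epha7 or Efna5. Such p-values were common in those comparisons. Of all 27342 probe sets, 5275 had one for stress in the vinclozolin lineage in CA1. For the stress average 4624 had one in CA1 and 3865 in CRTX. The 3 are therefore no result about these genes. The share of all probe sets called was 0.636% for stress in the control lineage in CRTX, 0.00731% for the stress average in CRTX, 0.505% for stress in the vinclozolin lineage in CA1 and 0.0% in each of the other 18 comparisons. The differences of the members lay between -0.54 and 0.46.

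In CA1, Epha7 was 9.08, 9.20 and 9.81 in St-Vin, against 9.47, 9.97 and 10.26 in NSt-Vin, and 9.45 and 9.54 in St-Con, against 9.56, 9.59 and 9.41 in NSt-Con. The vinclozolin groups overlapped, and the 2 lowest arrays of the area were St-Vin. St minus NSt was -0.54 ± 0.21 in the vinclozolin lineage (adjusted p = 0.203) and -0.025 ± 0.23 in the control lineage (adjusted p = 0.996), and the interaction was -0.51 ± 0.31 (adjusted p = 0.965). Without NSt-Vin replicate 3 the first of these was -0.36 (adjusted p = 0.399), and without St-Vin replicate 3 it was -0.76 (adjusted p = 0.0761).

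The dentate granule cell list moved with Epha7 across these arrays. It averaged 7.06, 7.03 and 7.73 in St-Vin, against 7.49, 7.64 and 8.20 in NSt-Vin, and the 2 arrays with the lowest list values had the 2 lowest Epha7 values, and the array with the highest list value had the highest. Prox1, itself 1 of the 5 genes of that list, was among the 3 genes nearest to Epha7 in pattern. Other lists shifted in the same arrays. The CA3 and CA2 pyramidal list stood -0.45 and -0.36 from its CA1 mean in St-Vin replicates 1 and 2. It stood at 0.39 in NSt-Vin replicate 3, and at 0.42 in NSt-Con replicate 3, where Epha7 was 9.41. The CA1 pyramidal list stood at 0.57, 0.71, -0.77 and -0.79 in these 4 arrays. All CA1 St-Vin arrays were scanned on a day on which no other CA1 array in use was scanned. In CA1 the St-Vin group and the scan day therefore cannot be told apart. The part of dentate or other tissue content in the Epha7 values was not tested.

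Efna5 in CA1 was 7.48, 7.41 and 6.77 in St-Vin, 7.27 and 7.07 in St-Con, 7.13, 6.74 and 6.52 in NSt-Vin, and 7.27, 6.64 and 6.23 in NSt-Con. The groups overlapped, with the lowest arrays among the non-stressed. The average stress difference was 0.44 ± 0.20 (adjusted p = 0.291). It was 0.16 without the arrays rich in choroid plexus transcripts, which in CA1 are NSt-Con replicates 2 and 3. That list averaged 8.36 and 9.94 in them, against 6.53 to 7.49 in the other CA1 arrays. Without them NSt-Con is left with 1 array, replicate 1, where Efna5 was 7.27. The cortical layer list (6 genes) averaged 9.19, 9.14 and 8.66 in St-Vin, 8.63 and 8.70 in St-Con, 8.67, 8.47 and 7.98 in NSt-Vin, and 8.63, 8.49 and 7.96 in NSt-Con, and was lowest where Efna5 was lowest. The CA1 pyramidal list (6 genes) ran the same way, at 9.68, 9.83 and 9.01 in St-Vin, 8.95 and 9.32 in St-Con, 9.18, 9.24 and 8.35 in NSt-Vin, and 9.13, 9.24 and 8.32 in NSt-Con. The part of these 3 lists in the Efna5 difference was not tested.

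**Figure D4:**
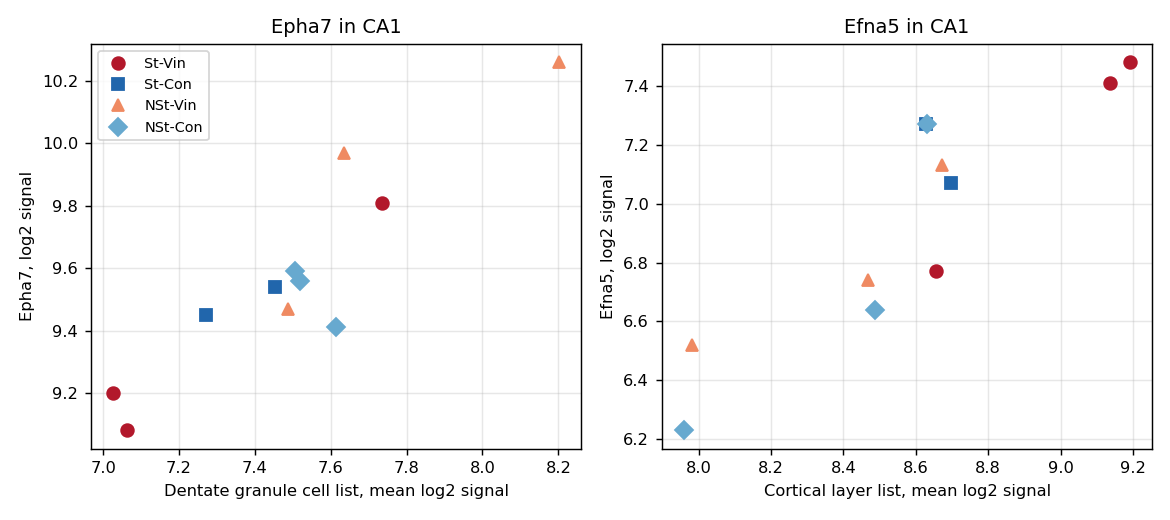
Left, Epha7 log2 signal against the mean log2 signal of the dentate granule cell list (5 genes) in CA1 arrays; right, Efna5 against the mean of the cortical layer list (6 genes). Points are the 11 arrays, marked by group, and the St-Vin replicates 1 and 2 stand at one end of both plots, with the lowest Epha7 (9.08 and 9.20) and the highest Efna5 (7.48 and 7.41).

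The remaining CA1 values of Epha3 lay between 7.35 and 7.90 with overlapping groups. Efna2 was 6.96, 7.07 and 6.99 in St-Vin, against 6.88 and 6.94 in St-Con, without overlap, a difference of 0.097 ± 0.091 (adjusted p = 0.979) in a comparison in which 11.7% of all probe sets were higher without overlap.

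In CRTX, Epha7 was 8.34, 8.18 and 8.01 in St-Vin and 8.00, 8.19 and 8.16 in St-Con, against 8.61 and 8.17 in NSt-Vin and 8.27, 8.35 and 8.25 in NSt-Con. St-Con lay wholly below NSt-Con, as for 13.3% of all probe sets, with a difference of -0.17 ± 0.11 (adjusted p = 0.422). The average stress difference was -0.19 ± 0.081 (adjusted p = 0.311), and leaving out 1 array moved it to between -0.303 (adjusted p = 0.192, without NSt-Vin replicate 3) and -0.083 (adjusted p = 0.734, without NSt-Vin replicate 1). Both stressed groups were scanned on the second day, NSt-Con on the first, and NSt-Vin on both. With scan day as a block the average stress difference was 0.14, so its sign follows that choice. The scan day effect in that fit rests on 2 arrays, the NSt-Vin replicates 1 (first day, 8.61) and 3 (second day, 8.17). The blocked value therefore cannot decide between stress and scan day.

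In BLA, Epha5 varied more between arrays than in the other areas, and no lineage or stress difference was called. It was 9.56, 9.58 and 9.91 in St-Vin and 9.12, 9.45 and 10.15 in St-Con, against 9.70, 9.98 and 10.02 in NSt-Vin and 9.70, 10.10 and 9.82 in NSt-Con. The 2 pools of dyad group 6, the third stressed one, were both higher than the other stressed pools, and the groups overlapped. St minus NSt averaged -0.26 ± 0.15 (adjusted p = 0.996), and it ranged from -0.403 without St-Con replicate 3 (adjusted p = 0.418) to -0.145 without St-Con replicate 1 (adjusted p = 0.999).

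Markers of striatal medium spiny neurons, from tissue that borders the amygdala, moved with these values. The list (11 genes) averaged 9.29 to 9.74 in the 6 arrays of dyad groups 1, 4 and 5, and 7.38 to 8.09 in the 6 arrays of dyad groups 2, 3 and 6. Epha5 was 9.12 to 9.70 in the striatal-rich arrays and 9.82 to 10.15 in the others. Epha3 ran the other way, at 7.70 to 7.84 in the striatal-rich arrays and 7.30 to 7.62 in the others. Neither gene overlapped between these sets of arrays, whereas Epha7, Efna2 and Efna5 did. Of all probe sets 1.72% were lower without overlap in the striatal-rich arrays and 3.37% higher. These sets were formed from marker levels after the values were seen, so the contrast is a description, and the part of striatal tissue in the BLA values was not tested.

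**Figure D5:**
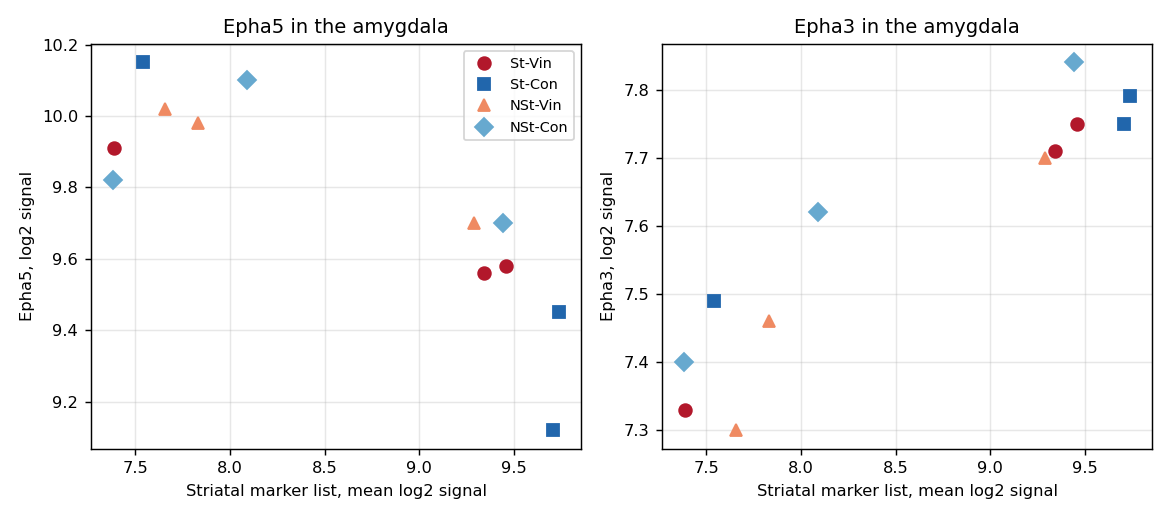
Log2 signal of Epha5 (left) and Epha3 (right) against the mean log2 signal of the striatal marker list (11 genes) in the 12 BLA arrays, marked by group. The arrays fall into 6 with a list mean of 9.29 or more and 6 with 8.09 or less, and Epha5 is lower and Epha3 higher in the striatal-rich ones, in every group.

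Within cage-mate pairs Epha3 in BLA was lower in Vin than in Con in 6 of 6 dyad groups, by -0.16 to -0.04 in the stressed and by -0.16 to -0.10 in the non-stressed. No other member and area had the same sign in all pairs, so this case was singled out after the values were seen. The share of all probe sets with such a pattern was not counted. The fitted lineage average was -0.11 ± 0.10 (adjusted p = 0.997, or 0.597 with the dyad group as a block), so it was not called in either fit. Leaving out 1 array moved it to between -0.162 (without NSt-Con replicate 3) and -0.040 (without St-Vin replicate 3). The striatal list was lower in Vin in 5 of these 6 pairs, by -0.365 to 0.273 over all of them. Epha7 in BLA was 8.37, 8.42 and 8.47 in St-Vin, against 8.58, 8.76 and 8.71 in NSt-Vin, without overlap, with a difference of -0.26 ± 0.20 (adjusted p = 0.9997) in a comparison in which 2.88% of all probe sets were lower without overlap. In the control lineage Epha7 was 8.25, 8.53 and 8.88 in St-Con, against 8.58, 9.28 and 8.36 in NSt-Con, and those groups overlapped. Efna2 stayed between 6.84 and 7.03 and Efna5 between 6.40 and 6.90 over all BLA arrays.

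The rest of the Eph and ephrin family and its partners was followed through 3 lists: 8 other Eph receptors, 5 other ephrins and 34 intracellular partners, phosphatases and glial glutamate transporters. In the lineage, stress and interaction comparisons of the 4 areas limma called 0 of their 1316 differences, with 70 at an unadjusted p under 0.05. Of all 27342 probe sets, between 331 and 5275 were under 0.05 in each of these comparisons. The lowest adjusted p in the lists was that of Efna1, a further ephrin-A ligand singled out after its values were seen. Its St minus NSt difference in the vinclozolin lineage in CA1 was 0.32 ± 0.068 (adjusted p = 0.0686). In CA3 most partners had the signs of Epha5. Vin minus Con was above 0 for 30 of the 34 partners without stress and for 4 with stress. The interaction was above 0 for 2, with a median of -0.147. St minus NSt was above 0 for 0 in the vinclozolin lineage and for 18 in the control lineage. Of the 8 other receptors, Vin minus Con was above 0 for 8 without stress and for 4 with stress. Of the 5 other ephrins it was above 0 for 2 and for 3, unlike Epha5. The interaction was above 0 for 2 of these receptors and 1 of these ephrins, and it was -0.01 for the median probe set. The share of all probe sets with such signs was not counted. The members were chosen on these CA3 comparisons, and the signs were not tested. The lists were drawn up with earlier results of these data known.

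Between areas these lists differed as most probe sets did. In CA3 minus CRTX, 5 of the 8 other receptors were higher and 2 lower, 3 of the 5 other ephrins were higher and 1 lower, and 31 of the 34 partners were higher and 3 lower, with medians of 0.51, 0.83 and 0.57 against 0.498 for the median probe set. After quantile normalization the counts were 4 higher and 4 lower for the receptors, 3 and 2 for the ephrins and 18 and 9 for the partners. Efnb3, a transmembrane ephrin needed for midline axon guidance in mice, had the largest difference of the 3 lists there, at 2.06 ± 0.09 (4.16-fold; adjusted p = 8.11e-22). Epha8, another EphA receptor, was higher in CA3 by 1.60 ± 0.058 (adjusted p = 3.9e-24). Tiam1, an activator of the GTPase Rac that acts in spine growth, was higher by 1.39 ± 0.13 (adjusted p = 2e-12), and Ptpro, a phosphatase that acts on Eph receptors, by 1.50 ± 0.12 (adjusted p = 9.22e-14). After normalization these 4 differences were 1.42, 1.01, 0.80 and 0.87. Efna4, also an ephrin-A ligand, was 1.04 ± 0.03 higher in CA3 than in CRTX (adjusted p = 3.71e-27), or 0.43 after quantile normalization. In CA3 minus CA1 Epha8 had the largest difference of the 3 lists, at 0.98 ± 0.058 (adjusted p = 7.6e-17).

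The genes nearest in pattern were found by Pearson correlation over the 46 arrays after centring each gene on its area means. These are descriptions, since arrays share pools, scan days and tissue content. Epha5 was nearest to Ptpn3, a protein tyrosine phosphatase (r = 0.86), Slc17a7, the vesicular glutamate transporter of cortical and hippocampal excitatory neurons (0.83), and Olfm1, a secreted neuronal glycoprotein (0.83). Epha7 was nearest to Prox1 (0.77), Neurod1, a transcription factor of granule neurons (0.76), and Htr1a, a serotonin receptor (0.76). Epha3 was nearest to Gabra4, a subunit of the GABA-A receptor (0.78), Btg1 (0.78) and Mknk1 (0.77). Efna5 was nearest to Rgs4, a regulator of G protein signalling (0.85), Ier5 (0.83) and Etv5 (0.83). Efna2 had no gene near it, its highest correlation being 0.54 with Cldnd2. Among the members themselves Epha5 and Epha7 correlated at 0.57 and Epha7 and Efna5 at -0.53, and the other 8 pairs lay between -0.27 and 0.30.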

How the data were processed

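The deposited values are log2 signals per probe set. The submitters' processing notes name RMA (background correction, normalization and summary per probe set) and Partek, with no versions in the sources used here, and whether areas were normalized together is not given in them. Probe sets were named from the platform annotation (15097 with 1 symbol, 323 with several, 11922 with none). Members and lists were chosen with earlier results of these data known. From the values, limma 3.58.1 (R 4.3.3) fitted the 4 groups of each area (7 two-sided contrasts) and, with the pool as a block, the 4 areas, with Benjamini-Hochberg adjustment over all 27342 probe sets and a threshold of 0.05; scripts were tested on simulated data. Arrays equal to their group's mean within 0.0051 were left out. Further genes were named where called between areas, up to 6 per comparison by size, or as the 3 nearest in pattern. Pairing comes from cage mates: their deviations from group means had r over 0.1 in 6 of 6 BLA, 3 of 5 CRTX, 5 of 5 CA1 and 5 of 6 CA3 pairs. P-values of the fits within areas reflect variation among pools of animals, and those of the area fit reflect variation left after pool differences are removed. The stress contrasts count cage-mate pools as independent, with 3 dyad groups per stress condition, so their standard errors can be too small. Alternatives changed normalization, filter, variance model, block and arrays.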

Additional observations from a re-analysis of the deposited data

Results flagged for a closer look

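Epha5 in CA3 moved in opposite directions between groups. Vin minus Con was -0.137 with stress and 0.263 without, in 3 of 3 dyad pairs each, which is a difference of -0.40. After quantile normalization the values were -0.065 and 0.206, with Vin lower in 2 of 3 stressed pairs and higher in 3 of 3 non-stressed ones. Seen as stress, St minus NSt was -0.27 in the vinclozolin lineage and 0.13 in the control lineage, the same difference of -0.40. The difference was not tested, because the genes were chosen on it.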

How the results depend on the processing

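No lineage or stress difference of a member was called under any setting in BLA, CRTX, CA1, the CA3 stress average or the 3-area mean: 0 of 2085 alternative values passed, and the lowest adjusted p was 0.0761 (Epha7, stress in the vinclozolin lineage, CA1, without St-Vin replicate 3). The replicate block by dyad group, given for lineage and interaction only because stress cannot be estimated with it, changed no call (Epha7 CA1 interaction -0.735, adjusted p = 0.237). Of the 30 area differences 26 were called when each pool was left out in turn, and 25 after quantile normalization and after centring. Within the first scan day, an alternative chosen after seeing the data and open to BLA minus CRTX only, 4 of 5 were called, against 5 of 5 over all arrays. Epha5 CA3 minus BLA turned to -0.039 after quantile normalization; the cause was not tested. Vin minus Con of Epha5 in CA3 ranged over -0.163 to -0.103 with stress and 0.242 to 0.297 without when each array was left out, and was -0.065 and 0.206 after quantile normalization. Not run: scan day as a block in CA1, the 3-area mean without choroid-rich arrays, and other probe sets, of which the members have none with 1 symbol.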
